A study of Mus musculus with 14 samples.

Results

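The cells described here are the E11 intra-aortic haematopoietic cluster (IAHC) cells that were sorted as c-kit+ CD31+, 201 of the 575 single cells of the E11 table and of the 1121 single cells of the series. They were taken as all columns of the sample with that phenotype label, which fall into 4 sorted sets of 50, 59, 49 and 43 cells. Each cell was sequenced by CEL-Seq, which counts mRNA molecules near their 3' ends, and each held exactly 5000 transcripts after the depositors' equal-depth sampling, so cells shallower than that are absent. AGM (aorta-gonad-mesonephros) regions were pooled, so the cells come from an unknown number of embryos, and all of them belong to 1 GEO sample. The c-kit antibody was applied inside the aorta with CD31 recorded for each sorted cell, but no CD31 value accompanies the cells, so the gate cannot be checked cell by cell. The paper counts fewer c-kit+ CD31+ cells than 201, not all with Gpr56, and c-kit+ CD31- cells from the same index sort. All 201 cells here hold Gpr56, and whether CD31- cells are among them was not tested. The IAHC cells had been selected by computer on Gpr56, so the level of Gpr56 is not a finding.

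The cells came from wild-type (WT) C57BL/6 embryos with more than 40 somite pairs. The populations set beside them from the same strain, genotype and stage were 89 IAHC cells sorted on c-kit alone, 62 type I and 55 type II pre-HSCs (precursors of haematopoietic stem cells sorted as c-kit+ Cdh5+, without and with CD45 in the index record), 46 c-kit+ yolk sac (YS) cells, and whole IAHCs picked from slices. The E10 IAHC cells, 73 c-kit+ CD31+ cells of WT C57BL/6 embryos of 28 to 32 somite pairs, were compared at equal depth. For background levels, 46 haemogenic endothelial (HE) cells, 30 non-HE cells and 46 cells in endothelial-to-haematopoietic transition (EHT) were used. These were Cdh5+ cells of E11 AGMs sorted by the Gfi1 and Gfi1b reporters and c-kit from ICR embryos carrying Gfi+/tomato/ Gfi1b+/GFP, so strain, genotype and cell type cannot be told apart in any difference from them.

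Haematopoietic stem cells of the mouse embryo arise from endothelial cells of the dorsal aorta. Haemogenic endothelial cells round up, lose endothelial junctions and join clusters of blood-forming cells attached to the vessel wall. Runx1 and its partners drive this transition, while endothelial receptors and adhesion molecules such as Cdh5 and Tek are lost as blood genes such as Rac2 and Coro1a are gained.

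The 4 sorted sets were close in depth of detection, and set 1 stood apart in a small number of genes. A cell held a median of 2346 genes with a transcript, from 2068 to 2656. The set medians were 2343.5, 2352, 2346 and 2345. Of 19424 genes listed, 12920 had at least 1 transcript in some cell, 1845 reached 0.5 transcripts per cell and 106 were found in every cell. The sets reused 70 of 93 well numbers, and no E11 column was identical to another. The highest correlation between any pair of the 201 cells was 0.683 and the median was 0.584. Against the other sets together, 19 of 2125 genes (0.894%) were at least 2-fold higher in set 1 and 10 (0.471%) were at least 2-fold lower. The counts were 5 (0.24%) and 5 (0.24%) in set 2, 3 (0.145%) and 9 (0.434%) in set 3, and 4 (0.19%) and 5 (0.238%) in set 4. In set 1 the glycolytic enzyme gene Gapdh had 4.94 transcripts per cell against 10.7 in the others, and the actin regulator gene Pfn1 had 5.36 against 1.914. Several other genes on that list are pseudogene or predicted entries with close relatives, such as Rpl34-ps1 at 4.64 against 1.762 and Gm12191 at 5.28 against 1.305. How reads were shared among such relatives was not tested. Cells of a set are not replicates. Where an interval is given, it is the exact 95% Poisson interval for a level or the Clopper-Pearson interval for a share of cells. A count of 0 is given the limit of 3 counts. These intervals cover counting error only. The range over the 4 sets is given for some values, and many values below carry neither.

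The markers of the label were present, with endothelial and blood genes in the same population. Gpr56, an adhesion G protein-coupled receptor, was at 5.27 transcripts per cell (4.96 to 5.596) and was found in all 201 cells, of which 187 held more than 1 transcript. Its set levels were 5.58, 5.02, 4.73 and 5.86. Cdh5 (VE-cadherin, the adherens junction protein of endothelium) was at 2.244 (2.04 to 2.46). Its set levels were 2.98, 1.797, 1.98 and 2.30, so set 1 was above sets 2 and 3 beyond counting error. Pecam1, which encodes the CD31 used in the sort, was at 0.940 (0.811 to 1.08), with set levels of 1.06, 0.966, 0.878 and 0.837. Procr, the endothelial protein C receptor that also marks stem cells, was at 0.945 (0.816 to 1.09), with set levels of 1.02, 0.831, 1.102 and 0.837. The intervals of the 4 sets overlapped for both genes.

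Among the blood genes, Rac2, a small GTPase of blood cells, was at 0.925 (0.797 to 1.07), with set levels of 0.960, 0.729, 1.122 and 0.930. Mpo, which encodes the granule enzyme myeloperoxidase, was at 0.502 (0.409 to 0.611) with set levels of 0.4, 0.508, 0.571 and 0.535. Kit itself, the receptor used in the sort, was at 0.647 (0.540 to 0.768), with set levels of 0.7, 0.627, 0.571 and 0.698. The sets did not differ beyond counting error in any of these 3 blood genes.

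**Figure D1:**
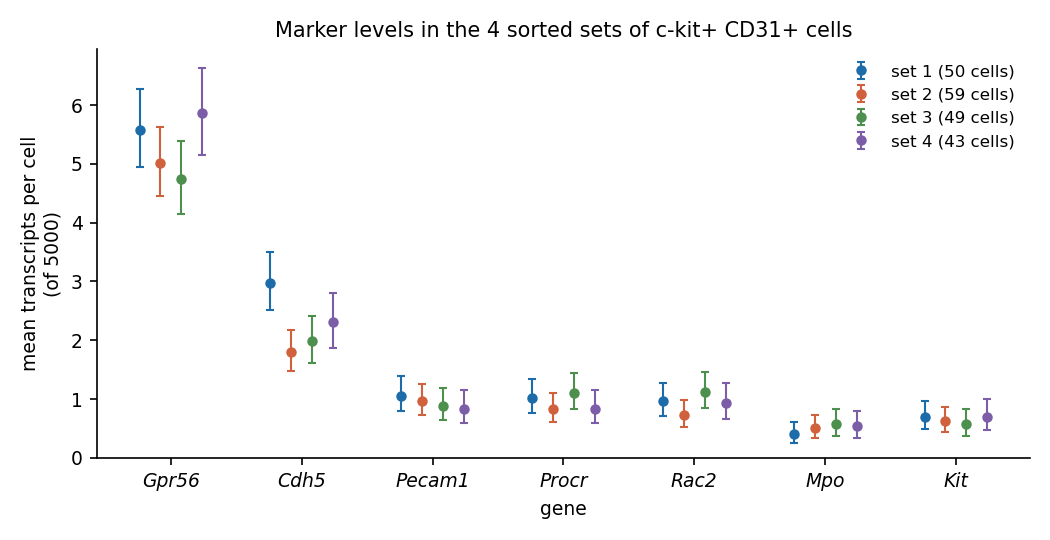
Mean transcripts per cell (of 5000) of the 6 marker genes and Kit in each of the 4 sorted sets, with exact 95% Poisson intervals for counting error. Gpr56 stands above the others in every set, Cdh5 is highest in set 1 at 2.98, and the intervals of the sets overlap for the remaining genes.

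Shares of cells with a transcript were read against populations that should lack the gene, all at 5000 transcripts per cell. Gpr56, on which the cells had been selected, was found in all of them, in 6.67% of non-HE, 47.8% of HE and 82.6% of YS cells, and nothing is read from it. Cdh5 was found in 151 cells (75.1%, 68.6% to 80.9%) and in 8.70% of YS cells. Pecam1 was found in 110 cells (54.7%) and in 21.7% of YS cells, Procr in 101 cells (50.2%) and in 2.17% of YS cells. Rac2 was found in 102 cells (50.7%, 43.6% to 57.9%) and Mpo in 66 (32.8%, 26.4% to 39.8%). Neither Rac2 nor Mpo was found in the 46 HE cells, where the 3-count limit allows up to 6.52% of cells with a transcript. Each of these 5 markers was found in a larger share of the c-kit+ CD31+ cells than in its background. That background was chosen to lack the gene, so only presence above it is read. Shares were larger still elsewhere. HE cells held Cdh5 in 100%, Pecam1 in 97.8% and Procr in 82.6%, and YS cells held Rac2 in 80.4% and Mpo in 65.2%. The other genes of the label were also present: Cd34, a sialomucin of progenitors and endothelium, at 4.07 per cell, and the transcription factor genes Runx1 at 0.766 and Gata2 at 0.532.

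Gpr56 apart, most cells held several of the other 5 markers and few held all of them. A cell held 3 of the 5 in 76 cases, 2 in 55, 4 in 37, 1 in 24 and none in 5, and 4 cells held all 5. Cdh5 and Rac2 were found together in 69 cells (34.3%, 27.8% to 41.3%), where the product of the separate shares is 38.1%. Procr and Mpo were found together in 24 cells (11.9%, 7.80% to 17.2%), against a product of 16.5%. The pairs of like genes were at or above their product: Rac2 with Mpo in 39 cells (19.403% against 16.7%) and Cdh5 with Procr in 85 (42.3% against 37.7%). All of these products lay inside the counting interval of the observed share. Vwf (von Willebrand factor, an endothelial clotting protein) and Coro1a (an actin regulator of leukocytes) were found together in 145 cells (72.1%). The product of their separate shares was 70.4%, also inside the counting interval.

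Purity was read from defining genes of neighbouring cell types. No cell held 4 or more genes of the 17-gene macrophage list, whose 164 transcripts were 70.7% Lyz2. The macrophage genes C1qa, C1qb and Ctss had 1 transcript each, Csf1r had 8, and Fcgr3 had 18 in 16 cells (7.96%). Among mesenchymal genes, Pdgfra was found in 0 of 201 cells (the 3-count limit allows up to 1.49% with a transcript) and Pdgfrb had 5 transcripts, but Cxcl12 and Crabp1 were each found in 35 cells (17.4%) and Col3a1 in 29 (14.4%). Transcripts of some mesenchymal genes were thus present, and their origin was not tested. The adult alpha globin gene Hba-a1 was also found in 0 cells, and all globin genes together had 36 transcripts. A purification rule was made from the published limits, more than 1 Gpr56 transcript and no more than 2 of any non-IAHC gene. Its gene list was assembled for the rule from single markers of other cells and holds 11 genes, and 140 cells (69.7%) pass. The cyclin-dependent kinase inhibitor gene Cdkn1c exceeds the limit in 54 cells, and 186 cells pass without it. Cdkn1c is also an imprinted gene.

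The most abundant RNAs are described by their share of all transcripts. Ribosomal protein genes made up 22.5% of transcripts, from 15.5% to 28.9% in a cell. The 15 most abundant other genes made up 5.71%. Among these, the elongation factor gene Eef1a1 led with 38.9 per cell, then Ptma (prothymosin alpha, 30.5) and H19, an imprinted growth-restraining RNA, at 26.2. Igf2, the imprinted fetal growth factor gene beside H19, was at 18.98 per cell, and the pair made up 0.903% of all transcripts. The chaperone genes Hsp90ab1 (20.3) and Hspa8 (13.1), the ribosome-bound scaffold gene Gnb2l1 (19.78), the actin genes Actb (18.6) and Actg1 (16.3), the cyclophilin gene Ppia (16.96), Tmsb4x (14.1), Tpt1 (13.01), Gm6402 (12.3) and Eef2 (12.2) were also in this group.

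Most genes varied between cells little more than counting gives. Over the 1845 genes at 0.5 or more per cell, the median ratio of variance to mean was 1.08, where counting alone gives values near 1, and 46 genes exceeded 2. H19 was highest at 8.94, with a range up to 75 transcripts in a cell, then Cdkn1c at 7.47, Igf2 at 5.68 and the galectin gene Lgals1 at 5.21. The imprinted gene Mest, at 4.11, was found in 25.4% of cells, and 72.1% of its transcripts were in the highest 10% of cells. The next were Tuba1a (3.81), the flow-responsive factor gene Klf2 (3.62), Ifitm1 (3.56), Tuba1b (3.51) and Actg1 (3.41). The imprinted genes H19, Cdkn1c, Igf2 and Mest thus stood among the 5 highest by this ratio. At equal relative spread the ratio grows with the level of a gene, and H19 and Igf2 are among the most abundant genes.

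To order the cells from endothelial-like to progenitor-like, transcripts were summed in each cell over 30 endothelial genes and over 30 haematopoietic genes. The means were nearly equal, 21.2 transcripts per cell for each list, but the spread was not. The endothelial sum had a median of 18, quartiles of 10 and 28 and a range of 1 to 74, and its variance was 10.02 times its mean. The haematopoietic sum had a median of 21, quartiles of 17 and 26 and a range of 1 to 43, with a variance 2.67 times its mean. Variation along this axis therefore came mostly from the endothelial genes. The endothelial sum was larger in 79 cells, the haematopoietic sum in 119, and they were equal in 3. Both sums reached 10 in 149 cells (74.1%).

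Across the 201 cells the sums fell against each other only weakly, with a Spearman correlation of -0.251 and a Pearson r of -0.281. Within the sets the Spearman values were -0.356, -0.227, -0.186 and -0.182. The points share sorted sets and a fixed depth, and what these would give by themselves was not tested. The highest members of the endothelial list were Egfl7, a secreted vascular factor, at 2.567 per cell, Vwf at 2.48 and Cdh5. The highest of the haematopoietic list were Coro1a at 3.46, the lysosomal gene Laptm5 at 2.846 and Arhgdib, a regulator of small GTPases, at 1.79. No single gene carried either list: the most abundant made up 12.1% and 16.3% of the sums.

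**Figure D2:**
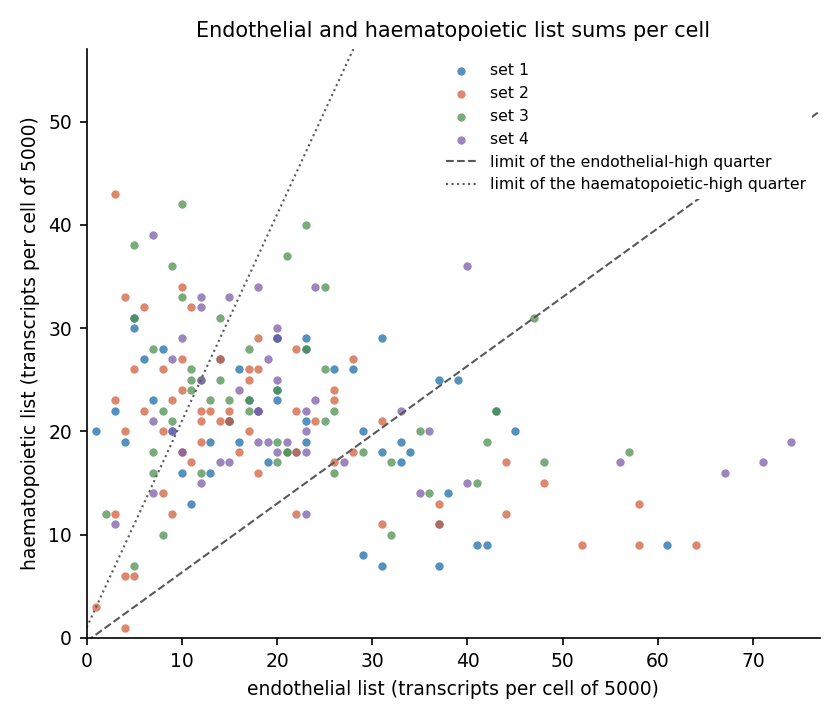
Each point is 1 of the 201 cells, with its endothelial list sum on the x axis and its haematopoietic list sum on the y axis (transcripts of 5000), coloured by sorted set. Lines mark the limits of the lowest and highest 50 cells of the axis, and cells of all 4 sets lie on both sides and along the range between them.

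Among the other E11 populations, the c-kit+ CD31+ cells lay between the pre-HSC types on both lists. The type I cells had median sums of 21.5 endothelial and 16 haematopoietic transcripts, the type II cells 11 and 24, and c-kit+ only IAHC cells 9 and 20. HE cells were at 119 and 3, and YS cells at 4 and 28.5. No c-kit+ CD31+ cell reached the HE median endothelial sum, and 4 of 201 lay within the range of the HE cells on the axis. Of the 201 cells, 32 reached the YS median haematopoietic sum. The lowest endothelial sum of an HE cell was reached by 3 of the 201 cells and that of a non-HE cell by 18. EHT cells, with medians of 33.5 and 12, came closer, and 36 of the 201 cells reached their endothelial median. Most c-kit+ CD31+ cells thus held fewer endothelial transcripts than the HE, non-HE and EHT medians.

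**Figure D3:**
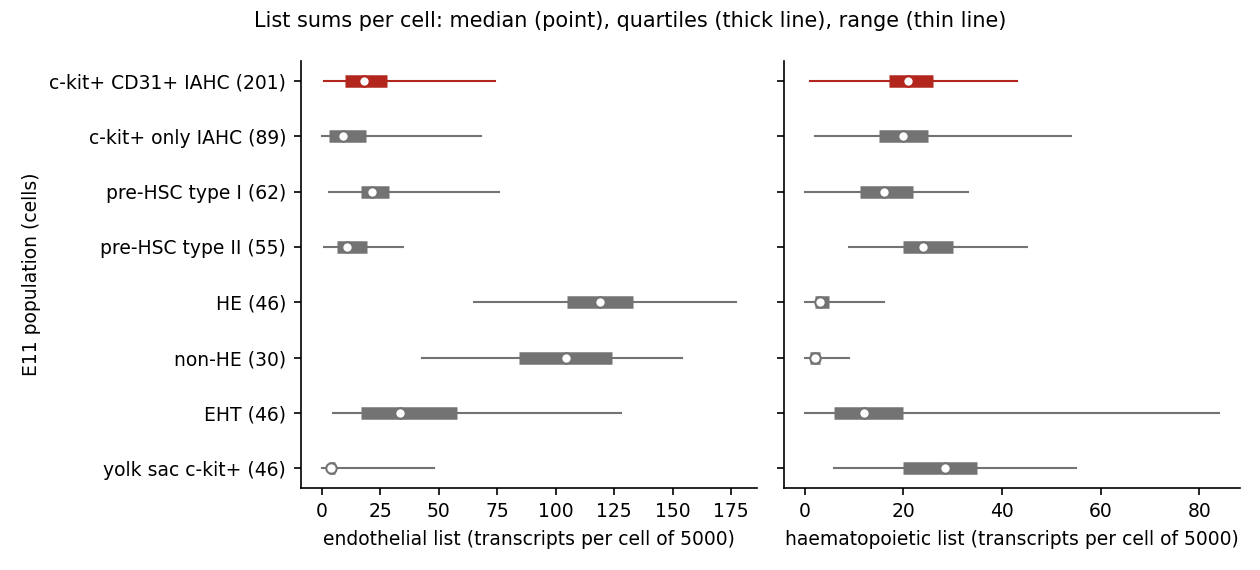
Endothelial list sums (left) and haematopoietic list sums (right) per cell in 8 E11 populations, in transcripts of 5000, with the median as a point, the quartiles as a thick line and the range as a thin line. The c-kit+ CD31+ cells (red) have medians of 18 and 21, which fall between those of the pre-HSC types.

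The comparison of the extremes asks what else differs between endothelial-like and progenitor-like cells of the same sort. The axis is the log2 of the haematopoietic sum plus 1 less the log2 of the endothelial sum plus 1, and the lowest and highest 50 cells are the extremes. The limits are cuts along the order, with 11 and 12 cells within 0.1 of them, and separate types were not tested for. Each extreme drew on all sets, with 15, 14, 12 and 9 cells at the endothelial-high end and 9, 16, 15 and 10 at the haematopoietic-high end. The lists use the same cells' transcripts, so their members describe the ordering and support nothing. At the endothelial-high end the mean sums were 40.5 and 14.9 transcripts, and at the haematopoietic-high end 7.42 and 25.9. The 19 endothelial list genes tested were all at least 2-fold lower at the haematopoietic-high end, with a median log2 ratio of -2.08, while 8 of 18 haematopoietic genes were at least 2-fold higher, with a median of 0.78. Of the ordering genes, Cldn5 (a tight junction gene) went from 2.32 to 0.140 per cell and Cdh5 from 4.46 to 0.4, while Rac2 rose from 15 to 98 transcripts and Mpo from 7 to 46. Coro1a was similar at both ends, at 2.76 and 3.30 per cell.

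The promoters of 4 of these ordering genes are printed because the genes differed between the ends, Procr and Tie1 lower and Mpo and Prtn3 higher towards the haematopoietic-high end. Each is 300 bases around the transcription start in the RefSeq GRCm38.p6 annotation, 5' to 3'. Capitals mark every match to 6 motifs on either strand: the ETS factor motifs CGGAAG and also AGGAAG, the RUNX motifs TGTGGT and also TGCGGT, the GATA motif AGATAA, and the E-box CAGCTG, which is its own reverse complement. The positions are chr2:155750967-155751266 on the + strand for Procr, chr4:118489800-118490099 on the - strand for Tie1, chr11:87793534-87793833 on the + strand for Mpo and chr10:79879417-79879716 on the + strand for Prtn3.
Procr: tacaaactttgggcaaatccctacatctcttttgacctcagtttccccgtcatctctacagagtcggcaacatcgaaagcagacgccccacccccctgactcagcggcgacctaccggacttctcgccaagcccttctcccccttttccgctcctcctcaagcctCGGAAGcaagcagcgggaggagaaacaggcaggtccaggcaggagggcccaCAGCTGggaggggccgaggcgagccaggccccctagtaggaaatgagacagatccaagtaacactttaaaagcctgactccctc
Tie1: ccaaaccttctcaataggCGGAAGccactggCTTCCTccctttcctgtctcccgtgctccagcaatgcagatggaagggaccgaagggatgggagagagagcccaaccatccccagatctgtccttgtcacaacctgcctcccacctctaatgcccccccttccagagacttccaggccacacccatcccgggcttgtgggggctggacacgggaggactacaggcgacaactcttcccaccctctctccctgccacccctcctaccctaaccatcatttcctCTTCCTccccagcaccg
Mpo: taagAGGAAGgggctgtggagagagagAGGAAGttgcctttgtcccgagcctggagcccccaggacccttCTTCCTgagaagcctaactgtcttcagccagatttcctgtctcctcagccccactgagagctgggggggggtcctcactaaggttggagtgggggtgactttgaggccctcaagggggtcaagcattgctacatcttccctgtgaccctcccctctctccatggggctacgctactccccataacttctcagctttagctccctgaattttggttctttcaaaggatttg
Prtn3: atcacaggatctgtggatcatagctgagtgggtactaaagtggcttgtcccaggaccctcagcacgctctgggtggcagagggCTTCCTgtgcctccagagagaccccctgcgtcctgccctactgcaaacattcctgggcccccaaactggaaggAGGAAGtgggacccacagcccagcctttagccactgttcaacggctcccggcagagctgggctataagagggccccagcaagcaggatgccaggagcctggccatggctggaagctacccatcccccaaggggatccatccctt
Of the 6 marker genes, Procr and Mpo had 1 promoter entry, Gpr56 (listed as Adgrg1) had 2, and Cdh5, Pecam1 and Rac2 had none. CGGAAG is held by 16.9% of all 32851 promoters of this length, AGGAAG by 35.4%, TGTGGT by 16.8%, TGCGGT by 6.45%, AGATAA by 11.2% and CAGCTG by 16.3%. Among genes higher at the haematopoietic-high end, 41 of 52 were matched to 51 promoters, and 49.0% of these held AGGAAG and 37.3% CGGAAG. Among genes lower there, 97 of 132 were matched to 133 promoters, with 37.6% and 15.8%. Over all genes tested the shares were 34.2% and 36.8%. TGTGGT was in 9.80%, 9.02% and 10.99%, TGCGGT in 9.80%, 9.02% and 9.63%, AGATAA in 7.84%, 6.02% and 6.11%, and CAGCTG in 23.5%, 21.8% and 12.1% of promoters in the same order. A match is a description of the letters and not a binding site.

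More genes were lower than higher at the haematopoietic-high end, also outside the 2 lists. Of all 2287 genes tested, 52 (2.27%) were at least 2-fold higher and 132 (5.77%) at least 2-fold lower. Of the 2250 genes outside the lists, 157 (6.98%) were at least 2-fold apart, 44 of them higher and 113 lower. The median log2 ratio over all genes was 0.02. Mt1, a metallothionein that binds zinc and copper, had 52 transcripts at the haematopoietic-high end and 0 at the other, at least 17.3-fold higher against a floor of 3 counts over the group. The 4 groups of 50 or 51 cells along the axis held 0, 6, 10 and 52 transcripts. Ptpn7, a tyrosine phosphatase of blood cells, had a log2 ratio of 1.959, with 1.38 to 2.20 over the sets. The tubulin gene Tuba4a was at 1.87 and the leukocyte gene Lst1 at 1.7004. The carbonic anhydrase gene Car2 (1.67), Lgals1 (1.66), the Ran exchange factor gene Rcc1 (1.619), the mitotic ubiquitin-conjugating gene Ube2c (1.61), Aldh9a1 (1.68) and Cmtm7 (1.51) complete the 10 highest. All had the same sign in each set.

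On the endothelial side, Nrp1, the neuropilin that binds VEGF and semaphorins, fell from 1.54 (1.215 to 1.92) to 0.0800 (0.0218 to 0.205) per cell, a log2 ratio of -3.19, with -3.60 to -3.01 over the sets. Ptprb, the phosphatase that acts on Tek and Cdh5, had 34 transcripts at the endothelial-high end and 1 at the other. The receptor gene Fgfr1 had 41 and 3, the endothelial lectin gene Clec14a 35 and 2, Tspan18 30 and 2, and Crip2 34 and 3. Sparc, a matrix glycoprotein gene, had a log2 ratio of -2.52 and the adhesion receptor gene Gpr116 -2.35. The blood group gene Art4 was at -2.30 and the caveolar gene Prkcdbp at -2.22. These 10 genes were lower in each of the 4 sets.

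**Figure D4:**
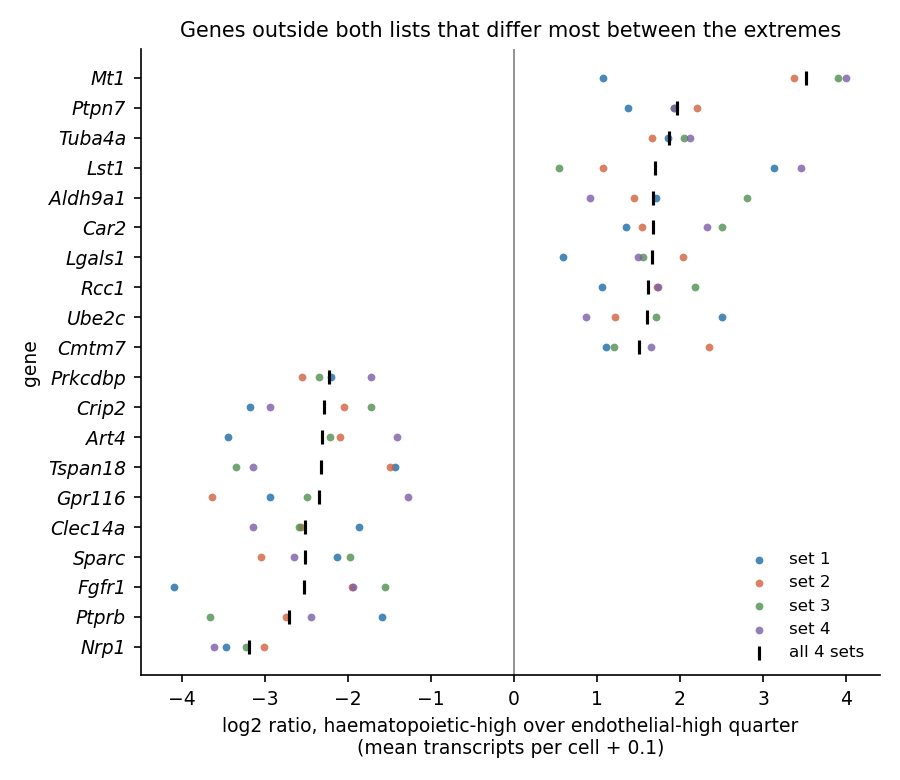
Log2 ratio of mean transcripts per cell, plus 0.1, in the haematopoietic-high over the endothelial-high 50 cells (x axis) for the 10 highest and 10 lowest genes outside the lists. Coloured points are the 4 sorted sets and black bars all cells, and the sets share the sign of the bar for every gene because the rule for naming genes required it.

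Most matrix and flow genes tested, and H19 and Igf2 among imprinted genes, were lower at the haematopoietic-high end. Of 9 matrix and flow genes tested, 7 were at least 2-fold lower at the haematopoietic-high end and none higher, with a median of -1.73, beside 5.77% lower and a median of 0.02 over all genes. Fibronectin (Fn1) fell from 6.40 to 1.86 per cell and the basement membrane collagen gene Col4a1 from 2.64 to 0.640. Klf2 had 71 and 46 transcripts, short of the 2-fold limit. Of 12 imprinted and fetal genes, 5 were lower (H19, Mest, Igf2, Igf2r and Plagl1) and none higher, with a median of -0.78. Of these, Mest, Igf2r and Plagl1, and the matrix and flow genes Sparc, Lamb1 and Epas1, reached 0.5 per cell at the endothelial-high end alone. H19 fell from 41.6 to 13.2 per cell and Igf2 from 27.3 to 9.58. Cdkn1c was at 3.20 and 1.56 per cell, a log2 ratio of -0.99. The imprinted list as a whole summed to 90.5, 70.4, 59.9 and 38.5 transcripts per cell over the 4 successive groups of 50 or 51 cells along the axis, against 40.5, 21.8, 15.2 and 7.42 for the endothelial list. H19 and Igf2 made most of this fall: the others summed to 21.7 and 15.7 at the ends. Mesenchymal genes were weighed beside these, since some make matrix: of 16 only Acta2 was abundant enough to test (0.880 and 0.16 per cell), and the list summed to 2.06, 1.67, 1.90 and 1.66. The part of mesenchymal RNA in the matrix result was not tested.

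Few genes of the signalling lists were abundant enough to test. Their sums are given with the genes of the axis left out. The 22-gene BMP and TGF-beta list summed to 6.46, 4.53, 4.26 and 3.10 over the 4 groups. Its 2 genes tested, the BMP targets Id1 and Id3, were at least 2-fold lower at the haematopoietic-high end, beside 5.77% of all genes, with Id3 at 1.6 and 0.380 per cell. Both reached 0.5 per cell, the level needed for testing, at the endothelial-high end alone. The Notch list summed to 4.52, 3.35, 2.40 and 1.7, and 1 of its 2 genes tested, Nrarp, was lower, also with 0.5 reached at that end alone. Cytokine receptors summed to 5.42, 5, 4.26 and 3.88, with 0 of 4 genes past 2-fold. All 3 sums thus fell along the axis, while 3 of 8 single genes passed 2-fold. Surface marker genes without the axis genes Procr, Esam and Ptprc summed to 17.02 and 15.6 at the ends. Within them Gpr56 was 4.84 at both ends and Cd34 was at 4.2 and 3.56, whereas Kit was at 0.940 and 0.560 and the integrin gene Itgb3 was lower, though not in each set, and Ly6e was higher, at 0.640 and 1.46.

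Most transcription factors of the transition that were tested outside the axis were lower at the haematopoietic-high end, none by 2-fold. Of 24 in the list, Myb, Sfpi1 (PU.1), Ikzf1 and Sox17 are also genes of the axis and are left out here. Of the 17 others tested, 0 were at least 2-fold higher or lower, 3 had ratios above 0 and the median was -0.27. They summed to 14.1, 13.6, 13.6 and 12.1 transcripts over the 4 groups, a small fall towards the haematopoietic-high end. The counting intervals of the ends, 13.078 to 15.18 and 11.14 to 13.083, barely overlapped. Runx1 was at 0.6, 0.765, 0.980 and 0.720 per cell and Gata2 at 0.6, 0.667, 0.460 and 0.400, each with overlapping counting intervals. The most abundant members over all cells, axis genes included, were Cbfa2t3 (1.294), Lyl1 (1.26), Myb (1.199) and Sfpi1 (1.149).

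Proliferation, glycolysis and ribosome biogenesis genes were shifted to the haematopoietic-high end, mostly by less than 2-fold. Over all 2287 genes tested, 1162 had ratios above 0, with 2.27% at least 2-fold higher and 5.77% lower. All 16 G2 and mitosis genes tested had ratios above 0, with a median of 0.63, and 1 (Ube2c) passed 2-fold. Their sum rose from 12 to 13.8, 16.9 and 20.4 transcripts per cell. Glycolysis genes had a median of 0.51, with 9 of 11 above 0, Pgam1 at least 2-fold higher (1.08 to 2.72 per cell) and the glucose transporter gene Slc2a1 at least 2-fold lower (56 to 17 transcripts). Their sum was 26.4, 29.6, 32.2 and 38.0. Set 1 had the lowest glycolysis sum, 27.6 per cell against 30.1 to 35.6 in the others. It gave 15 endothelial-high and 9 haematopoietic-high cells, and its part in the rise was not tested. Ribosome biogenesis genes had a median of 0.43, with 10 of 12 above 0 and sums of 24.5, 26.5, 27.3 and 33.4. S phase genes had a smaller median of 0.31, with sums of 19.96 and 23.8 at the ends. The filter favours such counts: 4 of the 16 G2 and mitosis genes, 3 of the 12 ribosome biogenesis genes, 3 S phase genes and 1 glycolysis gene reached 0.5 per cell at the haematopoietic-high end alone. Slc2a1, the glycolysis gene Pfkl and the S phase gene Ung reached it at the other end alone. The sums use every gene of a list. G1 regulators (4 tested, median -0.43), interferon genes (6 tested, median -0.23, Ly6e higher and Ifitm3 lower) and actin and adhesion genes without the axis genes Coro1a and Lcp1 (13 tested, median -0.21, Itgb1 lower) had 1, 3 and 1 ratios above 0. Genes detected per cell had medians of 2373.5 and 2308.5 at the ends and ribosomal protein genes took 21.6% and 23.1% of transcripts. The part of these in the other differences was not tested.

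**Figure D5:**
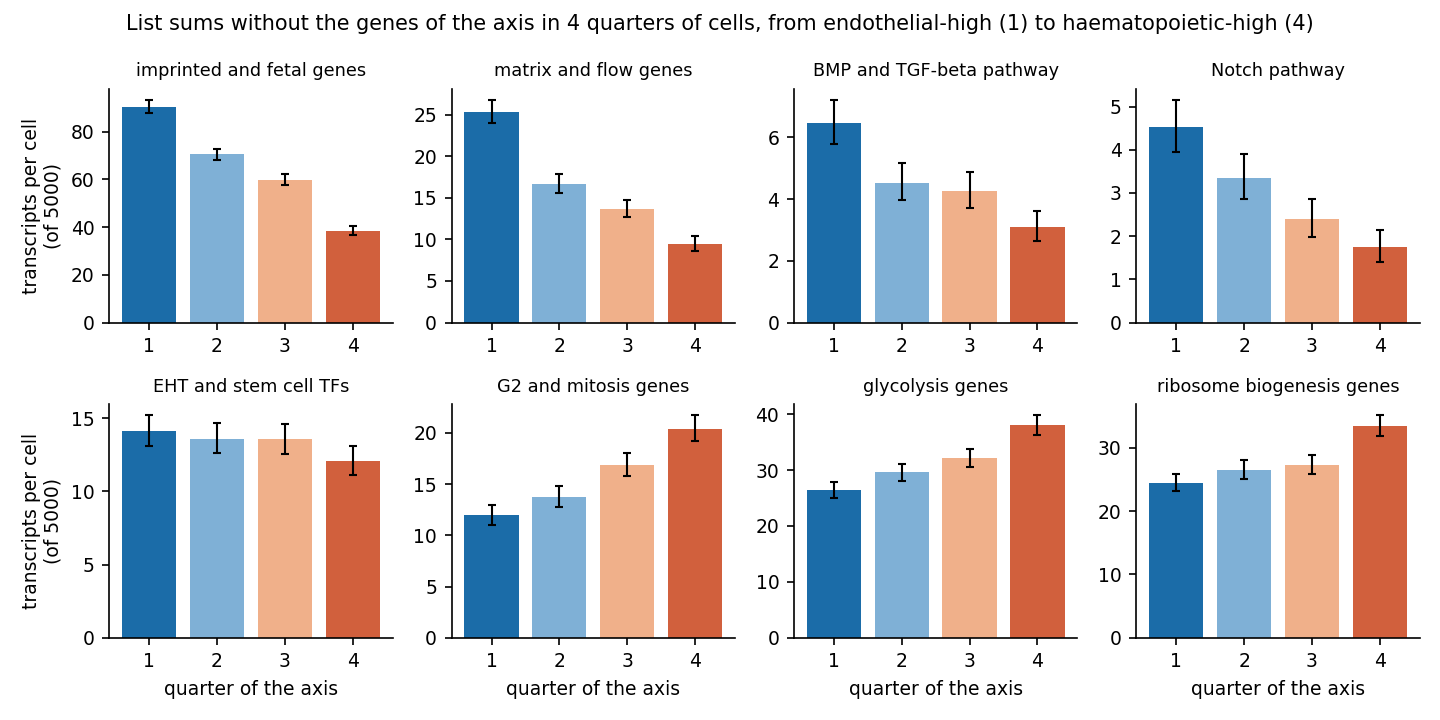
Mean list sums, without the genes of the axis, in transcripts per cell (of 5000) in 4 successive groups of cells along the axis, from endothelial-high (1) to haematopoietic-high (4), with exact 95% Poisson intervals. Imprinted, matrix, BMP and TGF-beta, and Notch sums fall, the transcription factor (TF) sum falls from 14.1 to 12.1, and G2 and mitosis, glycolysis and ribosome biogenesis sums rise.

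Of the blood lineage lists, the erythroid list rose most at the haematopoietic-high end once the genes of the axis were left out. Without Nfe2 it summed to 0.700, 1.118, 1.18 and 3 over the 4 groups. Mt1, from 0 to 1.04 per cell between the ends, and Car2, from 0.12 to 0.6, made most of this rise. They were the only genes tested and both passed 2-fold, though both reached 0.5 per cell at the haematopoietic-high end alone. With Nfe2 counted, 3 of these 50 cells held 24, 19 and 18 erythroid transcripts and no other held more than 9, so a few cells carried much of the rise. Megakaryocyte genes without Plek summed to 2.98, 2.63, 2.64 and 3.66, with Itgb3 lower and 0 higher. The myeloid granule list holds the axis genes Mpo, Prtn3, Elane and Ctsg, and without them it was 1.44 at the endothelial-high end and no higher at the other. Its rise from 1.78 to 3.34 thus came from genes that set the order. Lymphoid genes were at 0.900, 0.843, 0.740 and 0.460, with none abundant enough to test, and macrophage genes were flat at 0.700, 1.00, 0.900 and 0.660. Gata1, the erythroid and megakaryocytic factor gene, was found in 14 cells, 10 of them in the haematopoietic-high 50. Klf1, a later erythroid factor gene, was found in 5 cells, 3 of them there. Without the cells holding either transcript, 170 genes passed 2-fold between the extremes, against 184 with them.

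Spearman correlations with the axis use all 201 cells rather than the ends. Among 1815 genes outside the lists, the median Spearman correlation with the axis was 0.00833, 33 genes were at -0.3 or lower and 11 at 0.3 or higher. H19 had the lowest value, -0.734, and -0.590 to -0.768 over the sets, then Igf2 (-0.651), Fn1 (-0.544) and Nrp1 (-0.523). The binding protein gene Igfbp4 (-0.486), Art4 (-0.476), Col18a1 (-0.466), Col4a1 (-0.456), the perlecan gene Hspg2 (-0.440) and the G protein regulator gene Rgs2 (-0.434) follow. The highest were the tubulin gene Tuba1b (0.437), the antioxidant enzyme gene Gpx1 (0.384), the translation factor gene Eif5a (0.371), Tuba4a (0.361), Ube2c (0.356), Rplp1 (0.348), Cmtm7 (0.342), Tubb4b (0.333), Erh (0.328) and Pgam1 (0.303). The cells share depth, sets and the genes of the axis, so these values are descriptive. The first principal component of these genes, which held 2.571% of their variance, had a Spearman correlation of 0.734 with the axis. The direction of the component was set to rise with the haematopoietic sum, so only the size of this value is read.

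Cycling genes were unevenly spread over cells. S phase genes took 0.422% of transcripts (0.410% to 0.435%) and G2 and mitosis genes 0.315% (0.304% to 0.326%). The G2 and mitosis sum had quartiles of 5 and 26 around a median of 11, and 74 cells held 20 or more. The S phase sum had a median of 19, and 99 cells held 20 or more. The G2 and mitosis medians were 2 in HE, 3 in non-HE, 5 in EHT and 6.5 in type I cells, and 17, 15 and 19 in c-kit+ only, type II and YS cells. As a share of transcripts, non-HE cells were close at 0.296% (0.269% to 0.325%), as were type I cells at 0.294% (0.275% to 0.313%). The S phase and G2 and mitosis sums were nearly unrelated over cells, with a Spearman correlation of -0.0515. S phase shares ranged from 0.379% in set 1 to 0.470% in set 2. No phase was assigned to a cell.

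The comparison with IAHC cells sorted on c-kit alone asks what the CD31 selection changes. The c-kit+ CD31+ cells held more endothelial transcripts, 21.2 per cell (20.6 to 21.9) against 14.7 (13.9 to 15.5), and nearly the same haematopoietic sum, 21.2 against 21. Of 17 endothelial genes tested, 16 had ratios above 0, with a median of 0.46 beside 0.04 over all genes, and Tek, Tie1 and Vwf were at least 2-fold higher. Tek, Tie1, Rasip1, Ecscr and Gja4 reached 0.5 per cell in the c-kit+ CD31+ cells alone, so the filter set the sign of their ratios. The angiopoietin receptor gene Tek was at 0.602 against 0.202 per cell, its partner Tie1 at 1.13 against 0.461, and Vwf at 2.48 against 1.17. Of 15 haematopoietic genes, 7 were above 0 and none passed 2-fold. Mesenchymal genes were lower, 1.82 (1.64 to 2.02) per cell against 2.43 (2.11 to 2.773), as were erythroid genes, 2.29 (2.09 to 2.513) against 3.20 (2.84 to 3.596), and their part was not tested. Over all 2049 genes tested, 35 (1.71%) were at least 2-fold higher and 21 (1.02%) lower.

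The genes that differed most from the c-kit+ only cells were of mixed kinds on both sides. Jund, an AP-1 factor gene, had a log2 ratio of 1.98, Klf2 1.78, Fosb 1.741, Egr1 1.51 and the tumour suppressor gene Trp53 1.447. Pfn1 was at 2.12, with 3.04 in set 1 and 1.534 to 1.73 in the others, and Rpl34-ps1, Gm12191, Gm10548 and Gm6251 were at 2.04, 1.55, 1.51 and 1.38. Without set 1, 46 genes passed 2-fold instead of 56. On the lower side, the homeobox gene Rhox8 was at -2.91, but it was found in only 9.45% and 15.7% of cells. The vitamin C transporter gene Slc23a1 was at -2.86, Snhg6 at -2.50, Wnt4 at -2.21, the histone genes Hist1h2an and Hist1h2ao at -2.17 and -2.06, the splicing gene Snrpf at -1.90, Trim12c at -1.75, Kif3a at -1.56 and Loxl2 at -1.46. The populations were sorted and prepared as separate sets, so cell type and preparation cannot be told apart. This holds for each comparison below, and each uses the same 201 cells.

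Against type I pre-HSCs, the c-kit+ CD31+ cells had a lower endothelial sum, though not clearly in each set, and held fewer Kit and embryonic globin transcripts. The endothelial sum was 21.2 against 24.1 per cell (22.89 to 25.35), with 7 of 18 genes above 0 and a median of -0.32. Its set values were 22.88, 19.15, 20.29 and 23.26. The most abundant members, Egfl7 (2.567 against 1.81) and Vwf (2.48 against 1.97), were among the higher genes. The haematopoietic sum was 21.2 against 16.8, with 11 of 14 genes above 0 and a median of 0.18. No gene of either list passed 2-fold. Rac2 and Mpo reached 0.5 per cell in the c-kit+ CD31+ cells alone, and Cyba and Gja5 in the type I cells alone. The median over all genes was 0.05. Over 2080 genes tested, 17 (0.817%) were at least 2-fold higher and 18 (0.865%) lower. Kit was at 0.647 against 1.468 per cell, a log2 ratio of -1.07. The globin gene Hbb-y had a log2 ratio of -3.69, at 0.0697 (0.0381 to 0.117) against 2.097 (1.75 to 2.49) per cell, and Hbb-bh1 -2.46. Hba-x had 1 transcript in 201 cells against 41 in 62. Of the other erythroid genes, Nfe2 was the only one abundant enough to test, and globin RNA taken up from the surroundings was not tested.

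The other named genes against type I pre-HSCs were of mixed kinds. The immediate early genes Jund (1.88), Fosb (1.28) and Egr1 (1.25) were higher, and the response of cells to preparation was not tested. Also higher were Cmtm7 (1.75), the chromatin helicase gene Ruvbl2 (1.524), Rasl2-9 (1.33), Lgals1 (1.241), Gm5506 (1.23), Gm19757 (1.17) and Tuba4a (1.13). Slc23a1 (-3.58), the cofactor gene Ldb1 (-1.73), Snrpf (-1.72), Gm12504 (-1.56), A330032B11Rik (-1.54), Churc1 (-1.47) and Rhox8 (-1.41) were lower. Glycolysis genes had a median of 0.33, with 9 of 10 above 0 and the hexokinase gene Hk1 past 2-fold. Hk1 reached 0.5 per cell in the c-kit+ CD31+ cells alone.

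Against type II pre-HSCs the direction on both lists was the opposite. The endothelial sum was 21.2 against 13.3 per cell, with 15 of 17 genes above 0 and a median of 0.66, and Ramp2 (1.532), Cldn5 (1.02) and Gja4 at least 2-fold higher. All 3 of these reached 0.5 per cell in the c-kit+ CD31+ cells alone, as did 5 other genes of the 17. Gja4, a connexin gene of arterial endothelium, was at 0.522 (0.427 to 0.632) against 0.0545 (0.0112 to 0.159) per cell, the latter from 3 transcripts. The haematopoietic sum was 21.2 against 25.2, with 3 of 17 genes above 0 and a median of -0.33, and none past 2-fold. Cyba, Ikzf1, Hcls1 and Fermt3 reached 0.5 per cell in the type II cells alone, so their ratios were below 0 by the filter. Over 2075 genes tested, 26 (1.25%) were at least 2-fold higher and 22 (1.06%) lower, with a median of 0.03 over all genes.

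The other named genes against type II pre-HSCs were also of mixed kinds. Klf2 (2.00), Nrp1 (1.66), Mest (1.64), the smooth muscle actin gene Acta2 (1.354), Fosb (1.3502), the zinc finger gene Klf6 (1.33), Gm19757 (1.306) and Mlf2 (1.291) stood beside Gja4 and Ramp2 in the 10 highest. All 7 matrix and flow genes were above 0, with a median of 0.48. Mesenchymal genes were also higher, 1.82 (1.64 to 2.02) per cell against 0.655 (0.458 to 0.906), and their part was not tested. Cdkn1c had a log2 ratio of 1.205, and -0.01 in the 140 cells that pass the purification rule, which uses this gene. The 10 lowest were Slc23a1 (-4.03), Hbb-y (-3.39), Gm12504 (-2.14), the mitotic kinesin gene Kif11 (-2.12), A330032B11Rik (-1.98), Churc1 (-1.96), Snrpf (-1.81), the chemokine receptor gene Cxcr2 (-1.80), Ldb1 (-1.41) and the leptin receptor gene Lepr (-1.39). Of 17 G2 and mitosis genes, 3 were above 0, with a median of -0.19, and only Kif11 passed 2-fold.

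The comparison with E10 IAHC cells asks what changes with a day of development in cells of the same label. It used the 19322 genes listed at both stages, since the 102 ribosomal protein genes are listed at E11 alone, and E11 cells thinned to 3000 transcripts. At E11 the cells held 16.3 endothelial transcripts (15.8 to 16.9) against 12.4 (11.6 to 13.3) at E10, and 16.4 haematopoietic (15.8 to 16.96) against 17.2 (16.3 to 18.2). Imprinted and fetal genes were higher at E11, 49.97 (49.0 to 50.96) against 39.7 (38.2 to 41.1), with 8 of 9 tested genes above 0 and a median of 0.34. Mesenchymal genes were also higher, 1.33 (1.17 to 1.498) against 0.671 (0.497 to 0.887), as were the other non-IAHC genes, 2.602 (2.38 to 2.83) against 1.7397 (1.4503 to 2.07). Erythroid genes were lower, 1.79 (1.61 to 1.98) against 2.70 (2.33 to 3.10). The part of these lists was not tested. Ribosome biogenesis genes were lower, 21.7 (21.1 to 22.4) against 28.6 (27.3 to 29.8), with 1 of 10 above 0, a median of -0.39 and Nop58 at least 2-fold lower. The same cells, at 27.9 at full depth, were also below E11 c-kit+ only (35.7), type I (32.7) and type II cells (34.5), and each comparison uses the same 201 cells. The median over all genes was -0.02. The E10 cells form 1 sorted set, so stage and set cannot be told apart.

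Over 1489 genes tested against E10, 38 (2.55%) were at least 2-fold apart, 18 of them higher at E11 and 20 lower. This count depended on the order of steps: with E11 cells thinned before genes were left out it was 68, and 26 genes were in both (68.4% of the 38 and 38.2% of the 68). Klf2 led with a log2 ratio of 1.92, at 0.900 (0.774 to 1.04) against 0.164 (0.0849 to 0.287) per cell. Klf6 (1.73), Egr1 (1.71), Jund (1.71), Lgals1 (1.452), Gm10845 (1.33), the proliferation factor gene Mycn (1.32), Gm11517 (1.311), Trp53 (1.28) and Lyz1 (1.198) followed. Jund was at 2.41, 2.08, 0.437 and 0.817 over the sets. Lyz1 and Lyz2 are near-identical in sequence, and the sharing of reads between them was not tested. The lowest were Slc23a1 (-4.49), Hbb-y (-2.72), Churc1 (-2.08), Snrpf (-1.98), Kif11 (-1.94), A330032B11Rik (-1.94), Loxl2 (-1.94), Cxcr2 (-1.87), Mfsd11 (-1.70) and Lepr (-1.50). The 4 comparisons share the same c-kit+ CD31+ cells, so a gene that is low in them appears in each, and Slc23a1 is such a gene. It was found in 4.97% of the 201 cells at full depth and had 0.0498 transcripts per cell, against 0.989 in c-kit+ only cells, 1.694 in type I and 2.35 in type II pre-HSCs.

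Whole clusters, picked from slices with their location recorded, give the level of the same genes in intact tissue. Of 55 E11 libraries, 29 reached 5000 estimated transcripts, 17 ventral and 12 dorsal, and levels are per 5000 transcripts. Medians over libraries are set beside means over the sorted cells, which are unlike statistics. The endothelial list had a median of 13.3 (0 to 32.1) and the haematopoietic list 14.2 (1.603 to 27.6), below the mean of the sorted cells in 26 and 27 libraries. Kit had a median of 1.63 against 0.647 in sorted cells, H19 22.02 against 26.2 and Igf2 17.9 against 18.98. Erythroid genes had a median of 17.6, and up to 1429, against 2.29 in sorted cells, and all 29 libraries were above that value. The globin gene Hbb-y had a median of 8.96 and a maximum of 628. The mesenchymal median was 3.84 against 1.82. Mesenchymal genes were above the sorted-cell mean in 20 of the 29 libraries. The paper reports that picked clusters held no contaminating cells, and proposes that those with high haemoglobin genes were mostly erythroid progenitors. Where the erythroid and mesenchymal RNA came from, and its part in the lower list levels, was not tested.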

How the data were processed

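The files hold estimated counts, deposited by the authors after mapping with BWA 0.6.2-r126 to mm10 transcripts, correction of unique molecular identifiers (molecule barcodes), sampling of each cell to an equal number of transcripts and addition of 0.1 to every value. The 0.1 was subtracted, which gave whole numbers for single cells (5000 per cell at E11, 3000 at E10) and non-integer values for whole clusters. Members were all columns of the sorted sets whose names match the E11 IAHC sample with phenotype c-kit+ CD31+. The 23 gene lists and the members were chosen with earlier results of these data known. In all, 527 columns of other samples (473 and 54 in 2 tables) were not used, and 5 list genes are not in the table. Doublets were not called: depth is equal by construction and removes their usual sign, so cells with genes of both lists may include them.

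Log2 ratios compare mean transcripts per cell plus 0.1, for genes at 0.5 or more per cell in either group, and genes at least 2-fold apart are counted. A gene that reaches 0.5 in 1 group alone has a ratio towards that group by the filter. Named genes are the markers, genes among the 15 most abundant, the 10 most variable, members of the lists, defining genes of other cell types and, per comparison, the 10 highest and 10 lowest log2 ratios with the same sign in every sorted set (for the extremes and the Spearman values, outside the endothelial and haematopoietic lists). List sums along the axis are also given without the genes of the 2 lists that order the cells. With 1 sample per group no test was made. For E10, genes common to both stages were selected after the files were seen, because the 102 ribosomal protein genes (22.5% of E11 transcripts) are listed at E11 alone, and E11 cells were thinned to 3000 transcripts with seed 11. Alternatives were thinning, leaving out each set, the purification rule, macrophage exclusion, pseudocounts, filters, folds, smaller extremes, a principal component axis, lists without their leading gene and library minima. Python 3.11.15, numpy 2.4.6, pandas 2.3.3, scipy 1.17.1 and matplotlib 3.10.9 were used.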

Additional observations from a re-analysis of the deposited data

Results flagged for a closer look

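Over 31 measures, the 4 sorted sets were searched for a value that stands apart from the others by a gap of more than 0.83 of the range. Chance alone sets apart about 1 in 20 groups of 4. The surface marker sum was 21 transcripts per cell in set 4, against 17.9, 18.3 and 18.3 in the others. The megakaryocyte gene sum was 3.39 in set 3, against 3.08, 3.09 and 3.12. Both were apart by size alone, and no other measure was.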

How the results depend on the processing

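Alternatives gave 1269 values, 91 of them for the leading results. Of these 91, 29 moved (a count by more than 1.5 times, another value beyond its counting interval or the spread of the sets), and for named genes 122 values moved and 857 did not. The added ones (cells ordered within each sorted set, cells without Gata1 or Klf1, and E11 cells thinned first) were chosen after seeing the data. No paired analysis was possible because no label links cells of different samples to an embryo.

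The share of transcripts in S phase and in G2 and mitosis genes, 0.738%, ran from 0.711% (without set 2) to 0.747% (without set 4) and was 0.758% in purified cells. Counts of genes past 2-fold depended on the settings. Between the extremes, 184 of 2287 genes tested became 120 of 1314 after thinning, with 77 in both (41.8% of the 184 and 64.2% of the 120). The 184 became 58 with a pseudocount of 0.5, 476 and 68 with filters of 0.2 and 1, 540 at 1.5-fold and 585 with extremes of 10% of the cells. Thinning and the filters change the number of genes tested as well. Against c-kit+ only cells, 56 became 29, 14, 131, 29 and 227 under the same settings (thinning to fold). Against type I pre-HSCs, 35 became 23, 8, 98, 13 and 225. Against type II pre-HSCs, 48 became 25, 11, 137, 19 and 258. Against E10, 38 became 84 at deposited depth, 11 with the pseudocount, 86 and 13 with the filters, 163 at 1.5-fold and 68 when E11 cells were thinned first. A larger pseudocount shrinks ratios and a wider filter or lower fold admits more genes, by construction. The cause of the other changes was not tested.

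Leaving out a set gave 211 to 239 genes between the extremes (228 without set 1), 46 to 68 against c-kit+ only cells (46 without set 1), 33 to 43 against type I and 49 to 59 against type II pre-HSCs, and 40 to 45 against E10. Cells ordered within each set gave 188, cells without Gata1 or Klf1 gave 170, and the principal component axis gave 232. Excluding cells with 4 or more macrophage genes removed 0 cells. Among all genes past 2-fold in the main settings, only Cdkn1c changed sign, from 1.205 to -0.01 against type II pre-HSCs in purified cells. The purification rule removes cells with more than 2 of its transcripts.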

Other observations

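Sex-linked RNA was sparse: 11 cells held Xist alone, 54 a Y-linked transcript alone, 1 both and 135 neither, so most cells cannot be assigned to an embryo's sex. In set 2, the 30 transcripts of the gut hormone gene Cck were all in 3 cells. Prtn3 and Mpo were found together in 32 cells, Prtn3 without Mpo in 45 and Mpo without Prtn3 in 34. Kdr, the VEGF receptor gene, was found in 21 cells, fewer than Tie1 (135) or Vwf (152). Ptprc, which encodes CD45, was found in 29 cells. These values come from 1 sample of pooled embryos at fixed depth, and the small counts carry wide counting intervals. No protein value, position in the aorta or function is deposited for these cells, and the sorted sets are the only split within them.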
